A study of Mus musculus with 27 samples.

Results

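The 42 genes described here encode the machinery that copies the genome in S phase: the MCM helicase, the factors that load and start it, the sliding clamp and its loader, the replicative polymerases, the enzymes that finish the lagging strand, the enzymes that make deoxynucleotides, and cyclin E. They were chosen by gene symbol, and all 42 were found among the 24416 distinct symbols of the table. Bulk RNA sequencing had been done on haematopoietic stem and progenitor cells (HSPCs), the cells that renew the blood, purified from C57BL/6 mice. The 27 libraries fall into 9 groups of 3. The embryonic groups are E12.5 FL, E12.5 PL and E16.5 FL. The other 6 groups are Perinatal BM, and 1w, 3w, 4w, 6w and 8w BM from mice of 1, 3, 4, 6 and 8 weeks. In this field FL stands for fetal liver and BM for bone marrow, and the labels leave PL unexplained. No transgene, treatment or batch is named, so all groups share the C57BL/6 strain and differ in stage and source. Sort markers, sex, the perinatal day and whether replicates are separate animals are not stated. P-values therefore measure only the spread between these libraries.

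In G1, the origin recognition complex (Orc1, Orc2 and Orc6 among its subunits) with Cdc6 and Cdt1 loads the ring of Mcm2 to Mcm7 onto DNA as an inactive helicase, a step called licensing, and geminin (Gmnn) later binds Cdt1 and blocks a further round. At the start of S phase, Cdc45 and the GINS complex (Gins1 to Gins4) join the MCM ring with the help of Mcm10, and cyclin E with its kinase promotes the passage from G1 into S. Many of these genes are textbook targets of E2F transcription factors and are transcribed most in cycling cells. Fetal liver HSPCs are known to divide often, and mouse bone marrow stem cells are known to become mostly quiescent in the weeks after birth.

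E2F factors bind short GC-rich words, so the promoters of the genes were searched for TTCCCGC or TTGGCGC or TTCGCGC or TTGCCGC on both strands, in the RefSeq windows of GRCm38.p6 that run from 250 bases before to 50 bases after a gene's start. Windows were given for 33 of the 42 genes, and not for Mcm4, Gmnn, Gins1, Gins2, Gins4, Rfc2, Prim2, Pole and Ccne2. The 180 bases before the RefSeq start are shown for 4 genes that carry a word there and stand for different steps: Mcm5 and Mcm6 for the helicase, Pola1 for the polymerases and Rrm1 for the nucleotide supply. None of the 4 stretches overlaps a GENCODE exon. The Mcm5 and Mcm6 genes start further downstream in GENCODE, and the bases after their RefSeq start were not found in a GENCODE transcript. Each is written 5′ to 3′ on the strand of the gene, and capitals mark the words, which can overlap each other.
Mcm5, chr8:75109329-75109508, plus strand: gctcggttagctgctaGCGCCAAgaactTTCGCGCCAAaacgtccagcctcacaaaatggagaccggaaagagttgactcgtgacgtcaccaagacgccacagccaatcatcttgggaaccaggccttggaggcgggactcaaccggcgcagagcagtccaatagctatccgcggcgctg
Mcm6, chr1:128359706-128359885, minus strand: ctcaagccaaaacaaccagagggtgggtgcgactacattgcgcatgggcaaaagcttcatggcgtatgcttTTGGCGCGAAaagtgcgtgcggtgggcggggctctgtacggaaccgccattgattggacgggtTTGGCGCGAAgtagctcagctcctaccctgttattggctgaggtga
Pola1, chrX:93632156-93632335, minus strand: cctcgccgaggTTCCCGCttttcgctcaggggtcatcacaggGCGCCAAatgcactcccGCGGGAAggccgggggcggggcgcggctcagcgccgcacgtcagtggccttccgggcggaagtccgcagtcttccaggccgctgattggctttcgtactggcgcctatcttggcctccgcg
Rrm1, chr7:102441515-102441694, plus strand: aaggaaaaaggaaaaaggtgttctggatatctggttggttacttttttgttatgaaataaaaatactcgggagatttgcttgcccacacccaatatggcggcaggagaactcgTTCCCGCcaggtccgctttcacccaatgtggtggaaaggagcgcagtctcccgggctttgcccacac
A word was found in 21 of the 33 genes with a window (63.6%), in 10.9% of all 27025 genes with a window of the same length, and in 4 of 22 mitosis genes (18.2%). The set of all genes was not chosen by gene type or matched for GC content. The CCAAT box (CCAAT, both strands) was found in 66.7% of the replication genes, 86.4% of the mitosis genes and 41.1% of all genes. The CHR word of cell cycle promoters (TTTGAA, both strands) was found in 15.2%, 72.7% and 20.2% of them. These matches describe letters in a window and are not shown to be bound.

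Levels are given as FPKM, fragments per kilobase of transcript scaled between libraries, which are per length and can be set side by side between genes. How they had been scaled is not stated, and their median-of-ratios factors were 0.9908 to 1.019. The read depth of the libraries is unknown. Relative to the median library, the steps between low values gave depths of 0.686 (4w BM replicate 2) to 1.61, with the E12.5 FL libraries the deepest, at 1.43 to 1.61. The E12.5 PL libraries stood apart from their HSPC label. Their summed level of 12 HSPC marker genes was 462 to 482 FPKM, against 919 to 960.3 in E12.5 FL, and 8 leukocyte genes summed to 198 to 344 against 1407 to 1490.3. In these libraries 11 of 12 trophoblast genes reached a mean of 1 FPKM and the list summed to 3258 to 3507 (Krt8, Krt18 and Krt19 the highest), against 19.0 to 21.0 in E12.5 FL, where 3 of the 12 were at 0 in all 3 libraries. Stroma genes summed to 5286 to 12427 against 12.7 to 15.8, and endothelial genes to 808 to 1029.7 against 249.6 to 277. In these bulk samples, fewer cells of a type and less RNA per cell cannot be told apart, and the part of these cell types in any difference from E12.5 PL was not tested. The comparison with E12.5 FL rests on these libraries and has no value without them. For the other comparisons, fits without the E12.5 PL libraries are named below where they moved a count by over 1.5 times.

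All 42 genes were above 1 FPKM in all 27 libraries, so none depended on a filter on low values. Pcna, the sliding clamp that holds polymerases on DNA, was the most abundant, with 299 FPKM in the lowest library, a median of 392 and 451 in the highest. Mcm6 (90.5, 211 and 242) and Mcm7 (92.1, 188 and 215) followed, whereas Ccne2 (3.06, 5.16 and 16.6), Gins3 (5.05, 6.79 and 10.02) and Orc1 (5.31, 8.45 and 12.1) were the lowest. The order of the MCM subunits was nearly fixed: Mcm6 was the highest in 26 of 27 libraries, Mcm7 the second in 26, Mcm3 the third and Mcm5 the fourth in 27, and Mcm2 was above Mcm4 in 24. Leaving out E12.5 PL, E12.5 FL had the highest group mean for 25 of the 42 genes and Perinatal BM the lowest for 15. Within bone marrow, 1w BM was the highest for 25 genes, and Perinatal BM (18 genes) and 4w BM (12 genes) were most often the lowest. The span between groups was small for most genes. Outside E12.5 PL the highest group mean was 1.14 times the lowest for Mcm6, and 2.14 to 2.18 times for Gmnn and Rpa3.

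**Figure D1:**
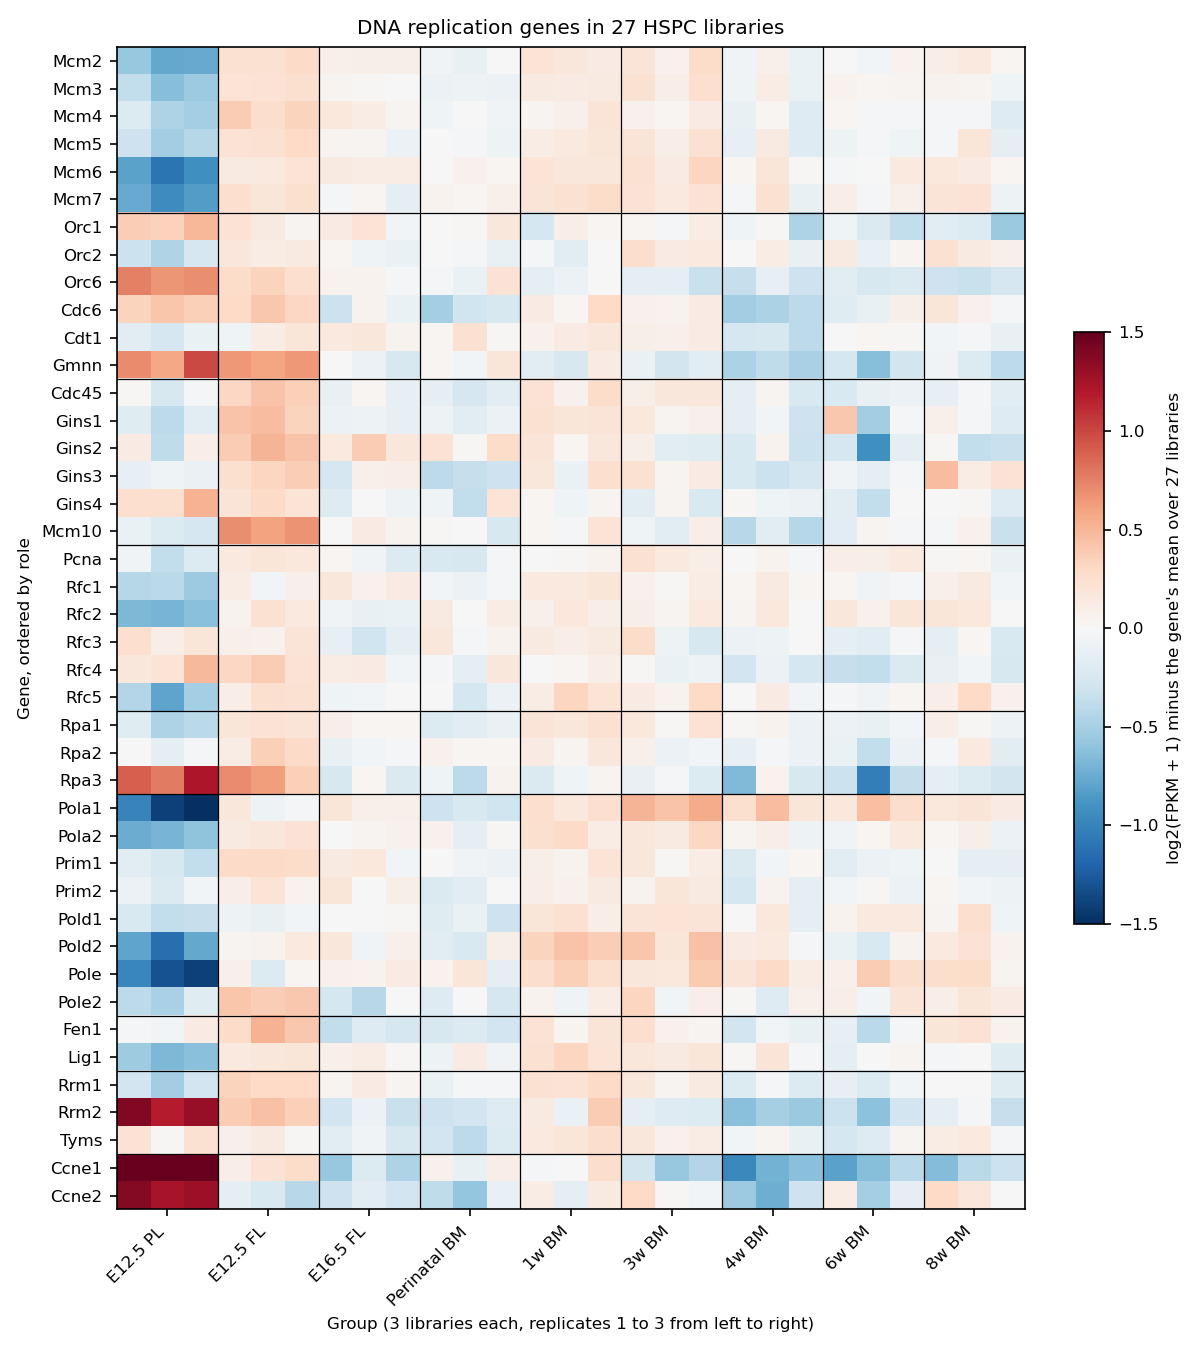
Each row is a gene, ordered by role, and each column a library. Colour gives log2(FPKM + 1) minus the gene's mean over 27 libraries, from -1.5 (blue) to 1.5 (red), and values beyond the scale, as for Ccne1 in E12.5 PL, take its end colour. E12.5 PL is blue for the MCM and most polymerase genes and red for Rrm2, Ccne1 and Ccne2, E12.5 FL is red for most genes, and Perinatal BM and 4w BM are pale blue for many.

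The first comparison set the E12.5 fetal liver against E12.5 PL. Differences were tested with limma on log2(FPKM + 1) in a fit of all 27 libraries, with Benjamini-Hochberg adjustment over 13350 genes, and a gene is called at an adjusted p under 0.05. In E12.5 FL, 30 of the 42 genes were called higher, 5 lower and 7 were not called, in a comparison in which 33.2% of all genes tested were called higher and 41% lower (74.2% in either direction). The median log2 change of the 42 genes was 0.48, and that of all genes tested -0.06. All 6 MCM genes and all 8 polymerase genes were called higher. Helicase activation genes (5 of 6), clamp and loader genes (4 of 6) and both lagging strand enzymes, Fen1 and Lig1, were also called higher.

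The largest rise was that of Pola1, the catalytic subunit of the polymerase that starts each strand with a primer. Each log2 change is given with its standard error. The Pola1 level was 13.7, 10.2 and 8.82 FPKM in the 3 E12.5 PL libraries and 32.04, 26.9 and 28.03 in E12.5 FL (log2 change 1.35 ± 0.11, adjusted p = 5.76e-11). Pole, the catalytic subunit of the leading strand polymerase, was at 9.78, 7.62 and 7.03 FPKM in E12.5 PL and 21.4, 17.4 and 20.6 in E12.5 FL (log2 change 1.19 ± 0.11, adjusted p = 1.12e-09). Every E12.5 FL library thus lay above every E12.5 PL library for these catalytic subunits. Mcm6 was at 111, 90.5 and 103 FPKM in E12.5 PL and 213, 216 and 224 in E12.5 FL (log2 change 1.10 ± 0.07, adjusted p = 8.18e-13). Mcm7 rose from 98.9 ± 6.65 to 208 ± 5.38 FPKM (SD, n = 3; log2 change 1.07 ± 0.08, adjusted p = 2.24e-11). The 6 MCM genes summed to 469.8 to 556 FPKM in E12.5 PL and 932 to 967 in E12.5 FL.

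The 5 genes called lower in E12.5 FL were both E-type cyclins, the small reductase subunit Rrm2, the origin recognition subunit Orc6 and the smallest single-strand binding subunit Rpa3. Ccne1 was at 66.6, 58.1 and 65.5 FPKM in E12.5 PL and at 12.2, 13.4 and 13.98 in E12.5 FL (log2 change -2.18 ± 0.13, adjusted p = 1.81e-13), which was the largest difference of any of the 42 genes in this comparison. Ccne2 was at 16.6, 14.9 and 15.5 FPKM in E12.5 PL and 5.16, 4.75 and 4.05 in E12.5 FL (log2 change -1.56 ± 0.15, adjusted p = 1.89e-09). Rrm2, whose protein limits the supply of deoxynucleotides, was at 170.1, 146 and 159.8 FPKM in E12.5 PL and 83.8, 87.1 and 82.3 in E12.5 FL (log2 change -0.90 ± 0.10, adjusted p = 3.90e-08). Its partner Rrm1 went the other way, from 79.3 ± 7.29 to 127 ± 1.66 FPKM (SD, n = 3), and was called higher. The ratio of Rrm1 to Rrm2 in FPKM was therefore 0.484 to 0.523 in E12.5 PL, and 1.45 to 2.23 in the 24 other libraries. Orc6 was at 55.2 ± 1.82 and 41.02 ± 1.22 FPKM (SD, n = 3; log2 change -0.42 ± 0.07, adjusted p = 2.48e-05). For Rpa3 the difference was small (log2 change -0.40 ± 0.17, adjusted p = 0.0425), and its call ended without E12.5 FL replicate 2 or 3 or E12.5 PL replicate 1 or 3, with adjusted p between 0.056 and 0.204.

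Among the licensing genes, Cdc6 stood at 17.9, 18.99 and 18.3 FPKM in E12.5 PL and 17.4, 18.8 and 17.6 in E12.5 FL, and Gmnn at 90.7, 83.05 and 111 FPKM in E12.5 PL and 87.5, 83.4 and 87.2 in E12.5 FL, with overlapping libraries and no call for either gene. Cdt1 was called higher, at 62.9, 59.03 and 65.6 FPKM in E12.5 PL and 67.2, 76.1 and 79.7 in E12.5 FL. Genes of different length moved apart in this comparison. The median log2 change of all genes was -0.18 in the shortest of 3 equal classes of exon length and 0.06 in the longest, and that of the replication genes was 0.24, 0.55 and 0.83 from the shortest to the longest class. The part of length in these differences was not tested. When each library was scaled to the same FPKM sum (TPM scaling), the median of all genes moved from -0.06 to 0.20, and 34 of the 42 genes were called higher and 3 lower. Cdc6, Rfc3 and Tyms, which were slightly lower and not called in the unscaled fit, had log2 changes of 0.27, 0.24 and 0.23 under that scaling and were called, so they stayed near the median of all genes under either scaling. The calls for Gins2 and Prim2 ended without E12.5 PL replicate 2 (adjusted p = 0.085 and 0.052).

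**Figure D2:**
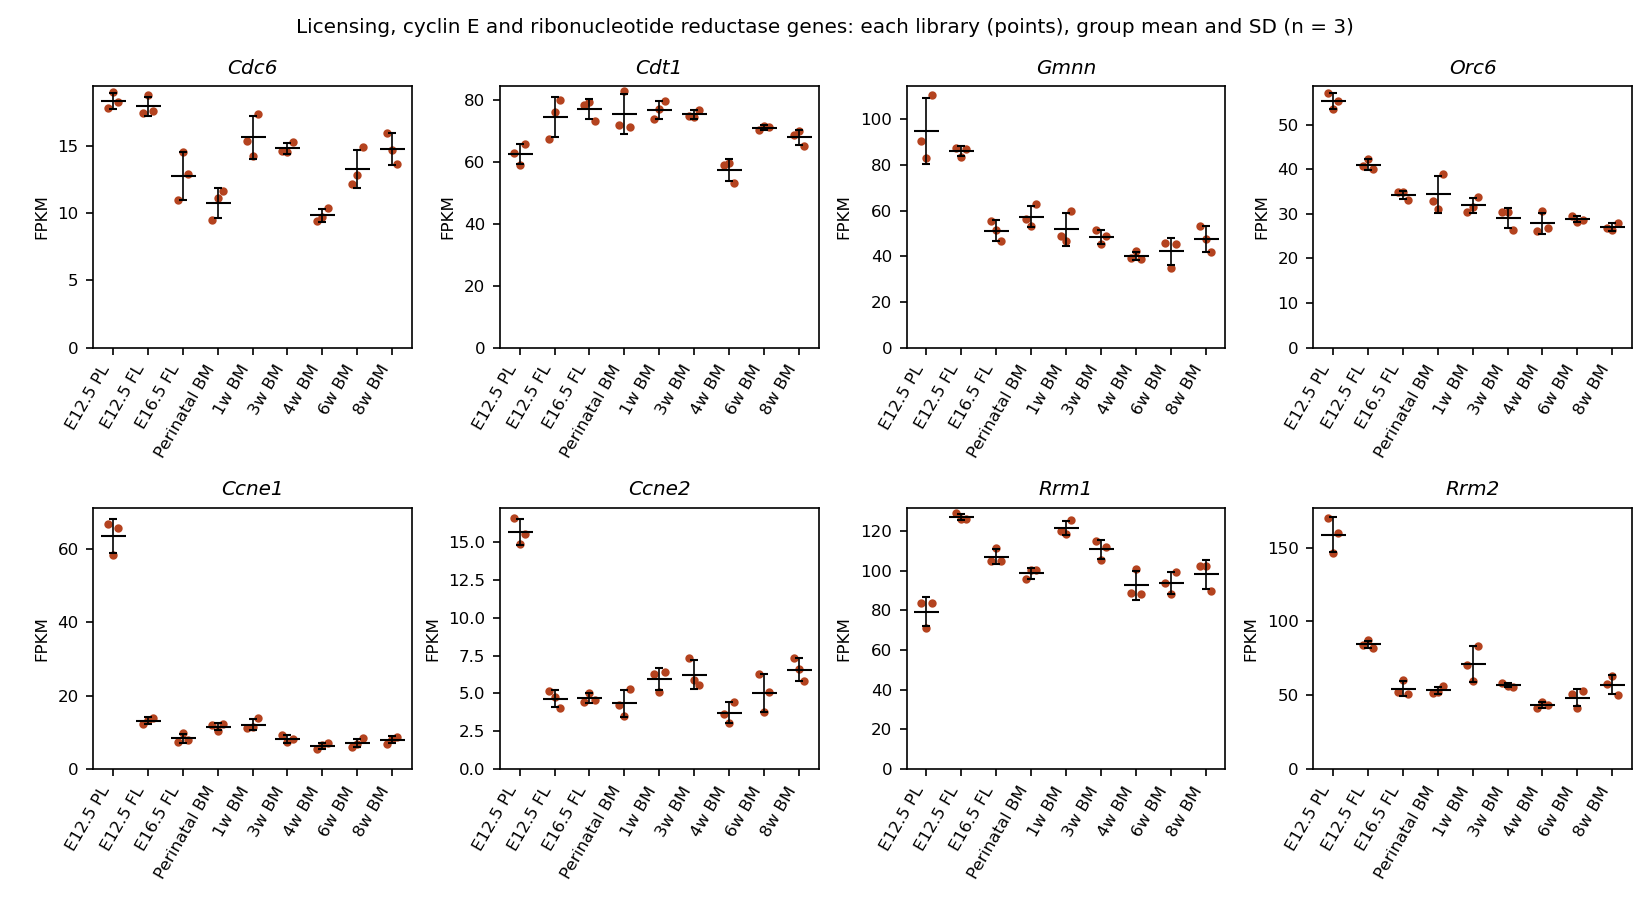
FPKM of 4 licensing genes (Cdc6, Cdt1, Gmnn, Orc6), both E-type cyclins and the reductase subunits Rrm1 and Rrm2 in the 9 groups, with points for libraries, a long bar for the group mean and whiskers for the SD (n = 3). Ccne1, Ccne2 and Rrm2 are highest in the E12.5 PL libraries, Gmnn is at 83.4 to 87.5 in E12.5 FL and 46.5 to 55.5 in E16.5 FL, and Cdc6 is low in Perinatal BM and 4w BM.

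Between E12.5 FL and E16.5 FL, 26 of the 42 genes fell and none was called higher, in a comparison in which 15.6% of all genes tested fell and 19% rose (34.6% in either direction). At an unadjusted p under 0.05, limma gave 29 lower and 0 higher. The median log2 change was -0.23 for the replication genes and 0.01 for all genes tested. The fall touched most roles: 5 of 6 MCM genes, 5 of 6 helicase activation genes, 3 of 6 licensing genes, 4 of 6 clamp and loader genes, 2 of 3 single-strand binding genes and the 3 nucleotide supply genes. Among the polymerases only Pole2 and Prim1 of 8 passed the test. B lineage genes summed to 22.1 to 26.5 FPKM in E12.5 FL and 63.9 to 192 in E16.5 FL (Cd79b, Igll1 and Vpreb1 the highest), erythroid genes to 9.35 to 34.1 and 31.1 to 72.1, and macrophage genes to 20.8 to 24.5 and 40.7 to 47.7. The median log2 change of the replication genes was -0.34, -0.20 and -0.15 from the shortest to the longest exon class, where all genes had -0.02 in the shortest and 0.08 in the longest. The part of these cell types and of length in the fall was not tested.

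Gmnn, the inhibitor of Cdt1, fell most. Its level was 87.5, 83.4 and 87.2 FPKM in the 3 E12.5 FL libraries and 55.5, 51.6 and 46.5 in E16.5 FL (log2 change -0.74 ± 0.12, adjusted p = 4.17e-05). Cdt1 was at 67.2, 76.1 and 79.7 FPKM in E12.5 FL and 78.3, 79.3 and 73.2 in E16.5 FL and was not called. The ratio of Gmnn to Cdt1 in FPKM was 1.41 to 1.69 in E12.5 PL and 1.09 to 1.301 in E12.5 FL, and it was 0.636 to 0.709 in E16.5 FL. In the bone marrow groups it stayed between 0.490 and 0.880, so that every library from E16.5 on lay below every E12.5 library. Rpa3 was at 101, 95.8 and 79.5 FPKM in E12.5 FL and 52.2, 63.03 and 53.1 in E16.5 FL (log2 change -0.70 ± 0.17, adjusted p = 0.00327). Fen1, the nuclease that trims the flaps of lagging strand fragments, was at 55.2, 65.6 and 60.6 FPKM in E12.5 FL and 35.1, 39.8 and 38.2 in E16.5 FL (log2 change -0.67 ± 0.09, adjusted p = 1.17e-05). Pole2, the second subunit of the leading strand polymerase, was at 23.3, 22.6 and 23.2 FPKM in E12.5 FL and 14.1, 12.7 and 17.1 in E16.5 FL (log2 change -0.63 ± 0.11, adjusted p = 1.33e-04).

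The catalytic subunits of the polymerases did not pass the test: Pola1 was at 29.0 ± 2.69 and 30.7 ± 1.45 FPKM (SD, n = 3), Pold1 at 62.4 ± 1.57 and 66.2 ± 0.136, and Pole at 19.8 ± 2.14 and 21.5 ± 0.644. Mcm6 was at 213, 216 and 224 FPKM in E12.5 FL and 212, 209 and 211 in E16.5 FL and was not called, whereas the falls of the other 5 MCM genes were small, with log2 changes from -0.27 (Mcm7) to -0.16 (Mcm2). None of these 5 MCM calls held without each library in turn, and 14 of the 26 calls did. Without E16.5 FL replicate 3 the count was 16, all lower. The Fen1 value is uncertain, since 78.8% of its exon bases are shared with an antisense gene and it is not stated whether reads were counted by strand.

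Perinatal bone marrow was compared with the E16.5 fetal liver. Of the 42 genes, 6 were called lower (Pola1, Gins3, Rpa1, Prim2, Pold1 and Rfc1) and 2 higher (Ccne1 and Rfc2), which is close to or below the share of all genes tested that were called lower (14.2%) and higher (14.2%, 28.4% in either direction). Their median log2 change was -0.07, against 0 for all genes tested. Pola1 was at 32.4, 29.9 and 29.9 FPKM in E16.5 FL and 22.6, 24.1 and 22.9 in Perinatal BM (log2 change -0.39 ± 0.11, adjusted p = 0.00779), with no overlap between the groups. Gins3, a subunit of the GINS complex, was at 5.69, 7.41 and 7.54 FPKM in E16.5 FL and 5.05, 5.296 and 5.43 in Perinatal BM (log2 change -0.32 ± 0.11, adjusted p = 0.0241). Ccne1 was higher in each Perinatal BM library, at 11.9, 10.4 and 12.2 FPKM against 7.303, 9.74 and 7.99 (log2 change 0.43 ± 0.13, adjusted p = 0.0131). Rfc2, a clamp loader subunit, was at 102 ± 2.26 and 115 ± 5.75 FPKM (SD, n = 3; log2 change 0.17 ± 0.06, adjusted p = 0.0403). Of its exon bases, 15.1% are shared with Lat2 on the other strand. Rpa1, the large single-strand binding subunit, fell by 0.22 on the log2 scale and Prim2, the large primase subunit, by 0.21. The sum of the 6 MCM genes was 813 to 848 FPKM in E16.5 FL and 801 to 806 in Perinatal BM, and none of them was called (limma gave 0 of these 6 at an adjusted p under 0.05).

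Only the call of Pola1 held without each library in turn. The count of 8 became 2 without Perinatal BM replicate 1, 5 without Perinatal BM replicate 2, and 3, 5 and 3 without E16.5 FL replicates 1, 2 and 3. It was 5 under TPM scaling and 2 in a fit of only the 6 libraries compared. The Perinatal BM libraries also held mast cell and basophil RNA: 9 of 9 genes of that list reached a mean of 1 FPKM (Tpsb2, Cma1 and Cpa3 the highest) and the list summed to 1565 to 3927 FPKM, against 28.0 to 77.9 in E16.5 FL and 118 to 221 in 1w BM. B lineage genes summed to 24.9 to 64.1 FPKM in Perinatal BM, against 63.9 to 192 in E16.5 FL. Erythroid genes summed to 14.4 to 19.5 FPKM in Perinatal BM, against 31.1 to 72.1 in E16.5 FL. The part of these cells in the differences from Perinatal BM was not tested.

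From the perinatal stage to 1 week after birth many of the replication genes rose. In 1w BM, 18 of the 42 genes were called higher than in Perinatal BM and none lower, while 8.6% of all genes tested were called higher and 8.97% lower (17.6% in either direction). At an unadjusted p under 0.05, limma gave 26 higher and 0 lower. Across the 42 genes the median log2 change was 0.20, against 0.00 for all genes tested. The 3 nucleotide supply genes, both lagging strand enzymes and 5 of 8 polymerase genes were called, and 2 of 6 in each of the MCM, helicase activation and clamp groups. Neutrophil genes, with Mpo and Prtn3 among the highest, summed to 1318 to 2827 FPKM in Perinatal BM and 3487 to 5395 in 1w BM, with no overlap, and mast cell and basophil genes to 1565 to 3927 and 118 to 221. The part of these cells in the rise was not tested.

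Cdc6, the loader of the MCM ring, was at 9.49, 11.1 and 11.6 FPKM in Perinatal BM and 15.4, 14.2 and 17.4 in 1w BM (log2 change 0.50 ± 0.10, adjusted p = 9.71e-04). Pola1 was at 22.6, 24.1 and 22.9 FPKM in Perinatal BM and 34.1, 31.8 and 33.97 in 1w BM (log2 change 0.50 ± 0.11, adjusted p = 0.00225). Both genes were thus higher in every 1w BM library than in any Perinatal BM library. Tyms, which makes the thymidine nucleotide, was at 16.7, 15.4 and 17.7 FPKM in Perinatal BM and 22.9, 23.4 and 24.9 in 1w BM (log2 change 0.49 ± 0.08, adjusted p = 2.56e-04). Pold2, a subunit of the lagging strand polymerase, was at 47.1, 44.9 and 56.3 FPKM in Perinatal BM and 66.7, 71.3 and 68.5 in 1w BM (log2 change 0.48 ± 0.10, adjusted p = 0.00195). The origin recognition genes were not among those called: Orc1 was at 8.71 ± 0.649 and 8.07 ± 1.18 FPKM (SD, n = 3), Orc2 at 19.96 ± 0.835 and 19.8 ± 1.29, and Orc6 at 34.3 ± 4.12 and 31.9 ± 1.69. Of the 18 calls, 10 held without each library in turn, those of Cdc6, Pola1, Tyms and Pold2 among them.

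**Figure D3:**
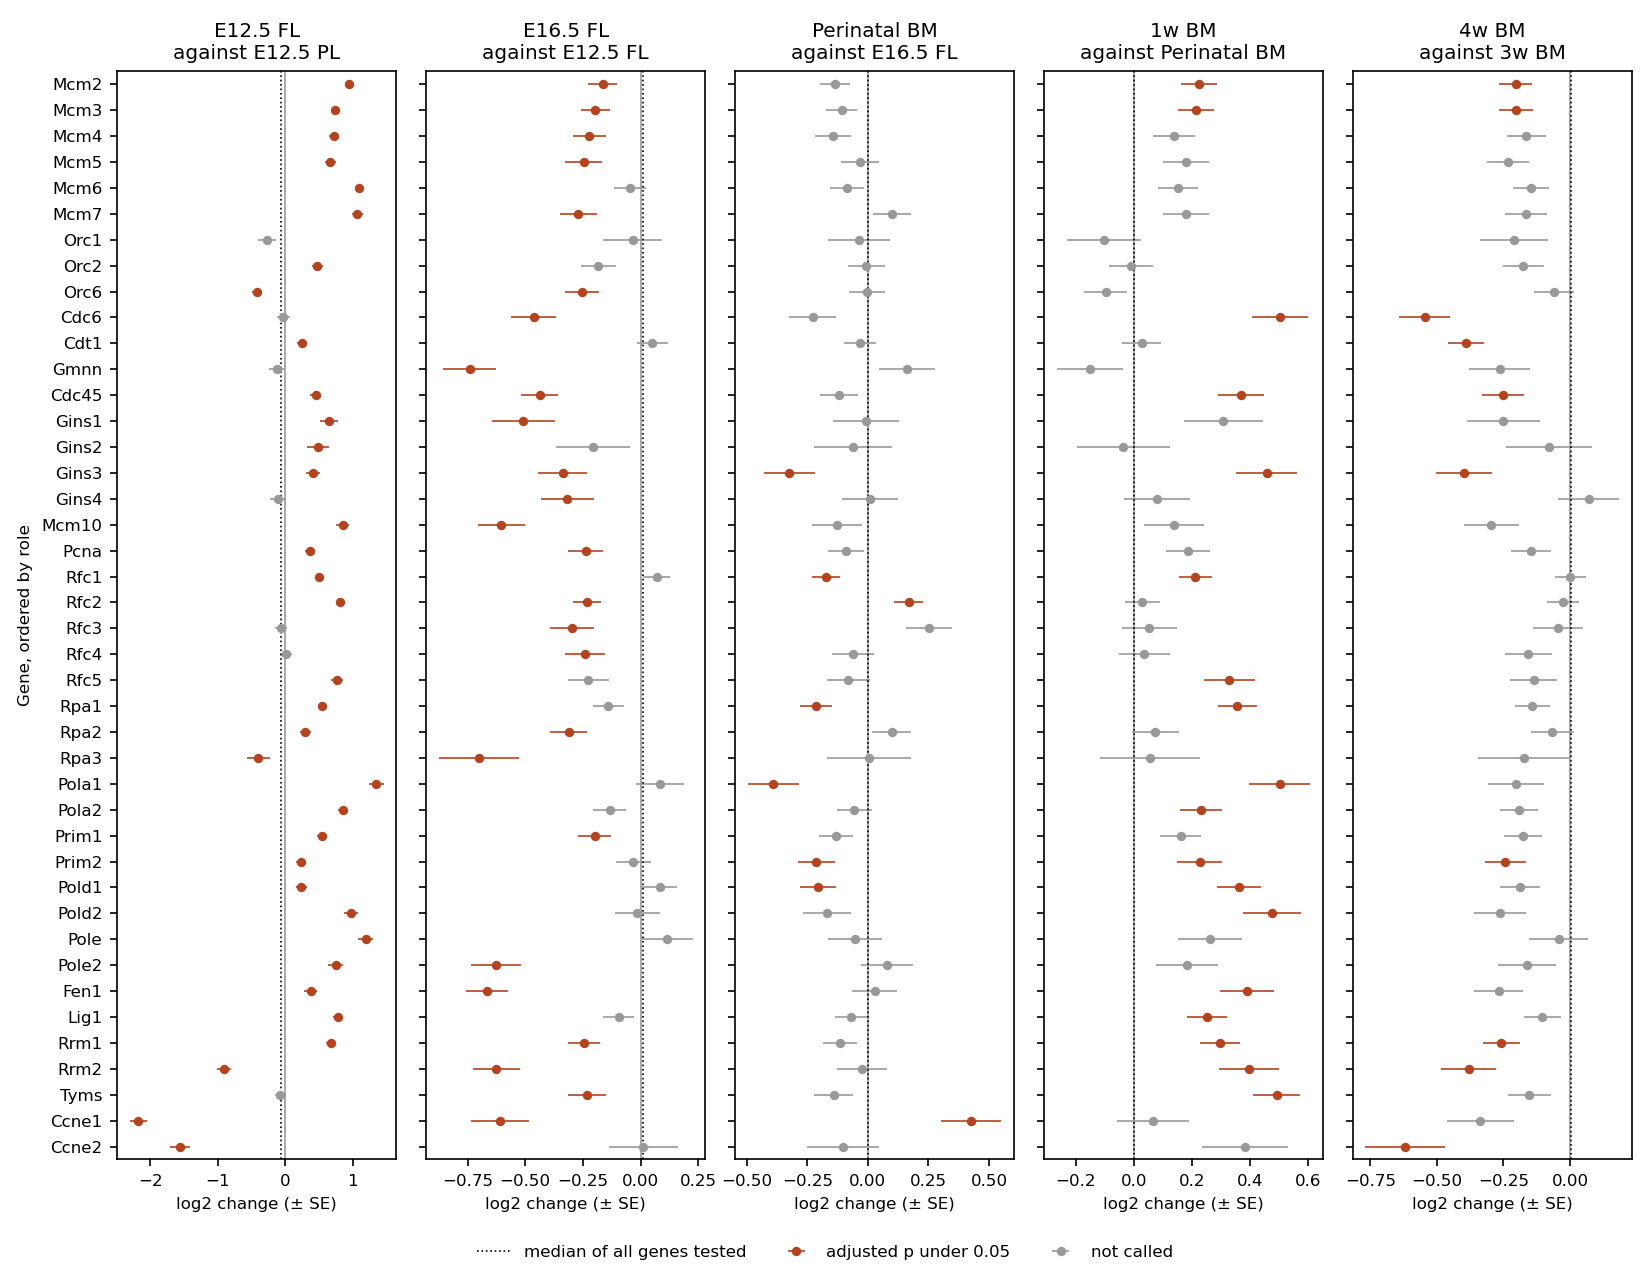
Log2 change with its standard error for each of the 42 genes, ordered by role, in 5 comparisons, with red-brown points for an adjusted p under 0.05 and a dotted line at the median of all genes tested. Each panel has its own x axis. In E12.5 FL against E12.5 PL most points lie to the right of the dotted line, in E16.5 FL against E12.5 FL and 4w BM against 3w BM most lie to its left, and in 1w BM against Perinatal BM most lie to its right.

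Between 1 and 3 weeks few genes passed the test. In 3w BM, 1 gene, Orc2, was called higher than in 1w BM and 1, Ccne1, lower, while 5.69% of all genes tested were called higher and 4.76% lower (10.4% in either direction). Limma gave 2 higher and 2 lower at an unadjusted p under 0.05, and the median log2 change of the 42 genes was -0.04. Ccne1 was at 11.1, 11.4 and 13.8 FPKM in 1w BM and 9.25, 7.303 and 8.12 in 3w BM (log2 change -0.51 ± 0.13, adjusted p = 0.0116), and its call ended without 1w BM replicate 3 (adjusted p = 0.069) or 3w BM replicate 2 (0.063). Orc2 was at 19.8 ± 1.29 and 23.6 ± 1.34 FPKM (SD, n = 3; log2 change 0.24 ± 0.08, adjusted p = 0.0465), and its call ended without any 1 of the 6 libraries. Of its exon bases, 29.8% are shared with Nif3l1 on the other strand. The MCM sum was 908 to 921 FPKM in 1w BM and 869 to 960.2 in 3w BM. Neutrophil genes summed to 3487 to 5395 FPKM in 1w BM and 2914 to 3177 in 3w BM. Mast cell and basophil genes summed to 118 to 221 and 93.4 to 99.3, macrophage genes to 28.7 to 43.6 and 50.3 to 59.7. B lineage genes summed to 27.7 to 31.9 FPKM in 1w BM and 34.8 to 45.8 in 3w BM. The part of these cells in the values was not tested.

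In 4w BM, 10 of the 42 genes were called lower than in 3w BM and none higher, while 4.56% of all genes tested were called lower and 4.72% higher (9.28% in either direction). At an unadjusted p under 0.05, limma gave 23 lower and 0 higher. The median log2 change was -0.18, against 0.00 for all genes tested. The genes called were the licensing factors Cdc6 and Cdt1, the helicase genes Mcm2 and Mcm3, Cdc45, Gins3, Prim2, both reductase subunits and Ccne2. Ccne2 was at 7.32, 5.86 and 5.55 FPKM in 3w BM and 3.64, 3.06 and 4.46 in 4w BM (log2 change -0.62 ± 0.15, adjusted p = 0.0126). Cdc6 was at 14.6, 14.5 and 15.3 FPKM in 3w BM and 9.45, 9.74 and 10.4 in 4w BM (log2 change -0.55 ± 0.10, adjusted p = 0.00219). Cdt1 was at 74.6, 74.3 and 76.8 FPKM in 3w BM and 58.9, 59.6 and 53.2 in 4w BM (log2 change -0.39 ± 0.07, adjusted p = 0.00189). The 3w BM and 4w BM libraries of these 3 genes did not overlap, and the calls of Cdc6 and Cdt1 held without each library in turn. Gins3 was at 8.37, 7.20 and 7.67 FPKM in 3w BM and 5.798, 5.36 and 5.71 in 4w BM (log2 change -0.40 ± 0.11, adjusted p = 0.0205).

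The 4w BM libraries differed among themselves. Replicate 2 was the highest of the 3 for 34 of the 42 genes, and its MCM sum was 896 FPKM against 784 and 756 in replicates 1 and 3. The same library had 2505 FPKM of neutrophil genes, against 835 and 897 in the others and 2914 to 3177 in 3w BM, and Mpo, Prtn3 and Elane were the highest genes of that list. B lineage genes summed to 34.8 to 45.8 FPKM in 3w BM and 20.1 to 23.7 in 4w BM. The part of these cells in the fall was not tested. Without 4w BM replicate 2, 15 genes were called, all lower. Without 4w BM replicate 1 or 3 the count was 2 and 3, and without 3w BM replicate 1 or 3 it was 2 and 3. It was 3 under TPM scaling, 2 in a fit of only the 6 libraries, and 6 with a term for the replicate number.

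After 4 weeks few genes passed the test. In 6w BM, Cdc6 and Cdt1 were called higher than in 4w BM and no gene was called lower, while 3.94% of all genes tested were called (2.59% higher and 1.35% lower), and at an unadjusted p under 0.05 limma gave 4 higher and 0 lower. Cdc6 was at 12.2, 12.8 and 14.9 FPKM in 6w BM (log2 change 0.40 ± 0.10, adjusted p = 0.0209) and Cdt1 at 70.3, 71.6 and 71.1 (log2 change 0.31 ± 0.07, adjusted p = 0.01). The call of Cdc6 ended without 4w BM replicate 1 (adjusted p = 0.092) or 6w BM replicate 2 (0.053) or 3 (0.107), and that of Cdt1 without 4w BM replicate 3 (0.077). Neither was called under TPM scaling or in a fit of only the 6 libraries. In 8w BM, Gins3 and Fen1 were called higher than in 6w BM and no gene was called lower, while 8.18% of all genes tested were called (2.97% higher and 5.21% lower), and at an unadjusted p under 0.05 limma gave 8 higher and 0 lower. Gins3 was at 6.71, 6.21 and 6.79 FPKM in 6w BM and 10.02, 7.605 and 8.23 in 8w BM (log2 change 0.34 ± 0.11, adjusted p = 0.0489), and Fen1 at 41.9, 34.1 and 44.98 FPKM in 6w BM and 51.8, 52.9 and 47.2 in 8w BM (log2 change 0.33 ± 0.09, adjusted p = 0.0287). Both calls ended without 6w BM replicate 2 (adjusted p = 0.200 and 0.248) or 8w BM replicate 1 (0.266 and 0.101), and the fit of only the 6 libraries called 0 genes. In the fit without E12.5 PL 1 gene was called. Macrophage genes summed to 46.0 to 53.5 FPKM in 6w BM and 96.5 to 146 in 8w BM, and their part was not tested. 6w BM replicate 2 was the lowest of the 3 libraries for 26 of the 42 genes: Rpa3 was at 49.01, 29.4 and 48.04 FPKM, Gins2 at 27.8, 17.2 and 29.98 and Gins1 at 42.97, 22.1 and 31.6. In that library the median difference from the other 6w BM libraries was -0.07 on the log2 scale for genes of the shortest exon class and 0.07 for the longest, and the part of length in these values was not tested. Such shifts were not particular to it. Against the rest of their own groups they were 0.15 and -0.17 in E12.5 PL replicate 3, -0.10 and 0.08 in Perinatal BM replicate 2, and 0.10 and -0.06 in Perinatal BM replicate 3. In 8w BM, replicate 3 was the lowest of the 3 libraries for 36 of the 42 genes.

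The bone marrow ends of the series were also set against earlier stages. These comparisons share libraries with those above. In 1w BM, 11 of the 42 genes were called higher than in E16.5 FL and none lower, while 10.4% of all genes tested were called higher and 11.9% lower (22.2% in either direction), and limma gave 19 higher and 0 lower at an unadjusted p under 0.05. The largest rises were those of Ccne1 (log2 change 0.49 ± 0.13, adjusted p = 0.00609), Fen1 (log2 change 0.42 ± 0.09, adjusted p = 0.00212), Rrm2 (log2 change 0.37 ± 0.10, adjusted p = 0.0113) and Tyms (log2 change 0.35 ± 0.08, adjusted p = 0.00311). The calls of Ccne1, Fen1 and Tyms held without each library in turn, and the count was 3 without 1w BM replicate 3 and 5 and 7 without E16.5 FL replicates 3 and 2. Tyms was at 18.2, 19.8 and 17.3 FPKM in E16.5 FL and 22.9, 23.4 and 24.9 in 1w BM, with no overlap. Neutrophil genes summed to 888 to 1841 FPKM in E16.5 FL and 3487 to 5395 in 1w BM, and B lineage genes to 63.9 to 192 and 27.7 to 31.9, and the part of these cells in the rise was not tested.

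In 8w BM the genes were mixed against E16.5 FL, with 6 called higher and 5 lower, while 20.5% of all genes tested were called higher and 19.7% lower (40.2% in either direction). On balance they moved by a median log2 change of 0.01. Higher were Fen1, Ccne2, Pole2, Gins3, Tyms and Rfc2, and lower were Gins2, Orc1, Orc6, Mcm4 and Cdt1. Ccne2 was at 4.46, 5.04 and 4.55 FPKM in E16.5 FL and 7.34, 6.58 and 5.81 in 8w BM (log2 change 0.41 ± 0.15, adjusted p = 0.0318). Orc6 was at 34.8, 34.8 and 33.2 FPKM in E16.5 FL and 26.9, 26.3 and 27.9 in 8w BM (log2 change -0.33 ± 0.07, adjusted p = 0.0011), and Orc1 at 9.12, 9.75 and 8.07 FPKM in E16.5 FL and 7.36, 7.05 and 5.31 in 8w BM (log2 change -0.40 ± 0.13, adjusted p = 0.0146). The libraries did not overlap for these 3 genes. Gins2 fell by 0.46 on the log2 scale, but 67.3% of its exon bases are shared with Gse1 on the other strand. The calls of Orc6 and Fen1 held without each library in turn, and the other 9 did not. That of Orc1 ended without 8w BM replicate 3 (adjusted p = 0.111) or E16.5 FL replicate 2 (0.065). That of Cdt1 ended without 8w BM replicate 1 or 3 or E16.5 FL replicate 1 or 2, with adjusted p between 0.066 and 0.133. That of Ccne2 ended without 8w BM replicate 1 or 2 or E16.5 FL replicate 1 or 3, with adjusted p between 0.070 and 0.124. The count of 11 became 6 and 7 without 8w BM replicates 1 and 2 and 7 without E16.5 FL replicate 1 or 2. It was 7 in a fit of only the 6 libraries. Under TPM scaling 9 genes were called higher and 2 lower, but the median log2 change of all genes tested moved from 0 to 0.068. That of the replication genes was 0.097 under this scaling. The shares of all genes given above are those of the unscaled fit. B lineage genes summed to 63.9 to 192 FPKM in E16.5 FL and 19.7 to 22.4 in 8w BM, macrophage genes to 40.7 to 47.7 and 96.5 to 146, and neutrophil genes to 888 to 1841 and 2234 to 2714. The part of these cells in the differences was not tested.

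Against Perinatal BM, 11 genes were called higher in 8w BM and 3 lower, while 19.2% of all genes tested were called higher and 18.6% lower (37.8% in either direction). Under TPM scaling 17 genes were called higher and 2 lower, but the median log2 change of all genes tested moved as well. It was -0.0005 in the unscaled fit and 0.088 under TPM scaling. That of the replication genes was 0.067 in the unscaled fit and 0.187 under TPM scaling. The shares of all genes given above are those of the unscaled fit. Gins3 rose most, from 5.05, 5.296 and 5.43 to 10.02, 7.605 and 8.23 FPKM (log2 change 0.61 ± 0.11, adjusted p = 8.79e-05), followed by Ccne2 (log2 change 0.51 ± 0.15, adjusted p = 0.00914), Pola1 (log2 change 0.44 ± 0.11, adjusted p = 0.00225) and Cdc6 (log2 change 0.43 ± 0.10, adjusted p = 0.00134). The 3 genes called lower were Ccne1, at 11.9, 10.4 and 12.2 FPKM in Perinatal BM and 6.89, 8.31 and 8.88 in 8w BM (log2 change -0.47 ± 0.13, adjusted p = 0.00457), Orc1 (log2 change -0.37 ± 0.13, adjusted p = 0.0277) and Orc6 (log2 change -0.33 ± 0.07, adjusted p = 0.00136). The E-type cyclins therefore moved in opposite directions, and their ratio in FPKM, Ccne1 to Ccne2, was 2.698 ± 0.332 in Perinatal BM and 1.24 ± 0.295 in 8w BM (SD, n = 3). It was highest in E12.5 PL, at 4.05 ± 0.162. Of the exon bases of Ccne2, 17.4% are shared with Ints8 on the other strand, and it is not stated whether reads were counted by strand. The call of Ccne2 ended without Perinatal BM replicate 2 (adjusted p = 0.058) and that of Orc1 without 8w BM replicate 3 (0.178) or Perinatal BM replicate 3 (0.098), and 7 of the 14 calls held without each library in turn. The count was 9 without 8w BM replicate 2 and 7 in a fit of only the 6 libraries. Macrophage genes summed to 38.4 to 45.5 FPKM in Perinatal BM and 96.5 to 146 in 8w BM, and mast cell and basophil genes to 1565 to 3927 and 53.6 to 66.0, and their part was not tested.

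**Figure D4:**
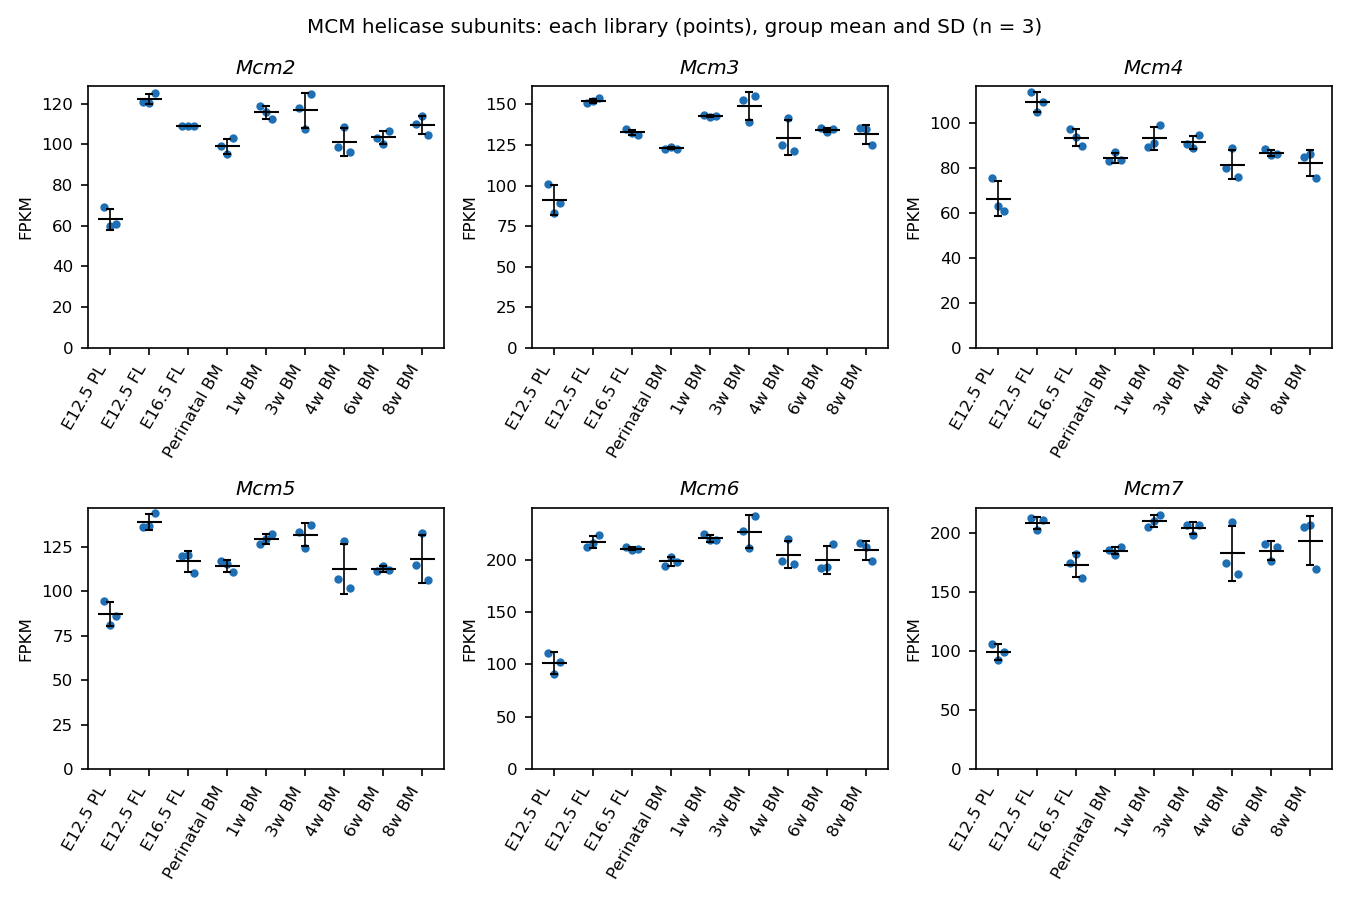
FPKM of Mcm2 to Mcm7 in the 9 groups, with points for libraries, a long bar for the group mean and whiskers for the SD (n = 3), each panel with its own axis from 0. All 6 genes are lowest in E12.5 PL. Mcm7 is at 92.1 to 105 there and at 202 to 212 in E12.5 FL, and in 4w BM replicate 2 it is at 209 while the other libraries are at 174 and 165.

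The MCM subunits kept closer levels in E12.5 PL than elsewhere: the ratio of the highest to the lowest of the 6 genes was 1.54 to 1.69 in its libraries, 1.87 to 2.06 in E12.5 FL and 2.18 to 2.62 in the 21 libraries from E16.5 on. The sum of all 42 genes was 2145 to 2455 FPKM in E12.5 PL, 3065 to 3109.8 in E12.5 FL, 2538 to 2667 in E16.5 FL, 2471 to 2595 in Perinatal BM, 2851 to 2952 in 1w BM, 2758 to 2933 in 3w BM, 2418 to 2727 in 4w BM, 2476 to 2676 in 6w BM and 2453 to 2754 in 8w BM. These ranges overlap between Perinatal BM, 4w BM, 6w BM and 8w BM. Those of E12.5 FL, 1w BM and 3w BM lie above E16.5 FL and Perinatal BM.

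The levels of a few genes over the 9 groups are given as examples, chosen after their values were seen. Orc6, which joins the origin recognition complex, had group means of 55.2 ± 1.82 in E12.5 PL, 41.02 ± 1.22 in E12.5 FL, 34.3 ± 0.943 in E16.5 FL, 34.3 ± 4.12 in Perinatal BM and 31.9 ± 1.69 in 1w BM (FPKM, SD, n = 3), and lay between 26.1 and 30.6 in the libraries from 3w BM on. Mcm10, which helps to switch the helicase on, stood high in E12.5 FL alone, at 33.3, 31.2 and 32.7 FPKM, and every other library had 23.3 or less. Rfc2 was low in E12.5 PL, at 67.96, 66.4 and 70.1 FPKM, and lay between 101 and 128 in the other libraries. Pola1 had its highest group mean in 3w BM, at 40.9, 38.7 and 42.1 FPKM, and its lowest outside E12.5 PL in Perinatal BM, at 22.6, 24.1 and 22.9. Lig1, the ligase that seals lagging strand fragments, was highest in 1w BM, at 85.6, 91.9 and 84.8 FPKM, just above E12.5 FL at 81.3, 82.2 and 82.98. Rrm2 had a group mean of 84.4 ± 2.46 FPKM in E12.5 FL and 71.2 ± 11.97 in 1w BM (SD, n = 3), and of 43.3 to 57.2 in the other groups outside E12.5 PL. These courses are descriptions of levels, and the order of neighbouring groups was tested only in the comparisons above.

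A list of 46 further replication and S-phase genes was drawn up from their known roles, with earlier results of these data known. It gave 30 higher and 6 lower in E12.5 FL against E12.5 PL, beside 33.2% and 41% of all genes tested. Of all genes tested, 15.6% were called lower and 19% higher in E16.5 FL against E12.5 FL, and 14.2% each in Perinatal BM against E16.5 FL. In 1w BM against Perinatal BM 8.97% were called lower and 8.6% higher, and in 4w BM against 3w BM 4.56% lower and 4.72% higher. Dna2, a nuclease of the lagging strand, was at 11.95, 9.805 and 10.1 FPKM in E12.5 PL and 30.05, 28.03 and 31.02 in E12.5 FL (log2 change 1.41 ± 0.09, adjusted p = 2.29e-12). Uhrf1, which carries DNA methylation through replication, was at 68.8, 56.9 and 58.9 FPKM in E12.5 PL and 135, 129 and 138 in E12.5 FL (log2 change 1.12 ± 0.08, adjusted p = 4.31e-12). In E16.5 FL against E12.5 FL, 12 of the 46 fell and none was called higher (20 lower and 1 higher at an unadjusted p under 0.05 in limma), among them Supt16, a subunit of the FACT histone chaperone (log2 change -0.51 ± 0.08, adjusted p = 3.24e-05), and Cdc25a, the phosphatase that activates S-phase kinases (log2 change -0.36 ± 0.07, adjusted p = 3.38e-04). In Perinatal BM against E16.5 FL, 15 fell and 4 rose, with Top1, the topoisomerase that relaxes the DNA ahead of the fork, at 80.7, 76.2 and 84.9 FPKM in E16.5 FL and 49.3, 45.97 and 57.9 in Perinatal BM (log2 change -0.65 ± 0.08, adjusted p = 1.93e-06). In 1w BM against Perinatal BM, 14 rose and none was called lower (19 and 0 at an unadjusted p under 0.05), with Ccna2, the S-phase cyclin, at 53.3, 52.9 and 57.7 FPKM in Perinatal BM and 77.2, 76.1 and 83.2 in 1w BM (log2 change 0.52 ± 0.07, adjusted p = 4.43e-05). In 4w BM against 3w BM, 7 fell and none was called higher (18 and 0 at an unadjusted p under 0.05), with the fork protein gene Donson at 11.6, 12.4 and 11.4 FPKM in 3w BM and 8.19, 8.25 and 8.29 in 4w BM (log2 change -0.47 ± 0.08, adjusted p = 0.00219).

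The list of 14 E2F and pocket protein genes, many of which encode textbook regulators of such promoters, was mixed. In E12.5 FL against E12.5 PL, 9 were called higher and 1 lower, beside 33.2% and 41% of all genes tested. The gene called lower was the repressor E2f7, at 14.6, 12.6 and 10.8 FPKM in E12.5 PL and 3.97, 4.26 and 3.76 in E12.5 FL (log2 change -1.44 ± 0.11, adjusted p = 4.96e-11). The pocket protein genes were among those that rose: Rbl1 went from 11.4, 10.4 and 8.704 to 27.6, 25.2 and 27.1 FPKM (log2 change 1.31 ± 0.09, adjusted p = 4.02e-12) and Rbl2 from 3.64, 4.48 and 3.35 to 8.38, 8.44 and 9.11 (log2 change 1.01 ± 0.12, adjusted p = 5.76e-08). In E16.5 FL against E12.5 FL, 5 were called higher and 3 lower, beside 19% and 15.6% of all genes tested. E2f3 was lower (log2 change -0.49 ± 0.08, adjusted p = 7.94e-05), and E2f2 (log2 change 0.69 ± 0.14, adjusted p = 5.42e-04), Rbl2 (log2 change 0.55 ± 0.12, adjusted p = 9.81e-04) and Tfdp2 (log2 change 0.46 ± 0.09, adjusted p = 5.90e-04) were higher. E2f3 and E2f2 are both activating E2Fs and moved in opposite directions, E2f3 from 20.7, 22.5 and 23.1 to 15.99, 14.1 and 16.4 FPKM and E2f2 from 6.44, 6.47 and 5.96 to 12.3, 11.8 and 8.51. In Perinatal BM against E16.5 FL, 1 gene of the list was called higher and 3 lower, where 14.2% of all genes tested were called in each direction. In 1w BM against Perinatal BM 3 were called higher and none lower (limma, 3 and 1 at an unadjusted p under 0.05), beside 8.6% and 8.97% of all genes tested.

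Mitosis genes, a list of 24 that are transcribed later in the cycle, were followed beside the replication genes. Of all genes tested, 33.2% were called higher and 41% lower in E12.5 FL against E12.5 PL, and 15.6% lower in E16.5 FL against E12.5 FL. The share called lower was 14.2% in Perinatal BM against E16.5 FL and 19.7% in 8w BM against E16.5 FL. In 1w BM against Perinatal BM 8.6% were called higher. In E12.5 FL against E12.5 PL, 22 were called higher and 1 lower, and in E16.5 FL against E12.5 FL 12 fell (0 higher also at an unadjusted p under 0.05 in limma), with Aurka at 57.9, 56.7 and 54.3 FPKM in E12.5 FL and 30.1, 35.7 and 30.02 in E16.5 FL (log2 change -0.80 ± 0.11, adjusted p = 5.77e-06). In Perinatal BM against E16.5 FL, 19 of the 24 mitosis genes fell, with a median log2 change of -0.53, where 6 of the 42 replication genes fell with a median of -0.07. Whether these lists differ was not tested. Hmmr, a spindle protein gene, was at 20.9, 24.8 and 21.6 FPKM in E16.5 FL and 9.61, 9.31 and 10.5 in Perinatal BM (log2 change -1.11 ± 0.10, adjusted p = 1.83e-08), and Plk1, a mitotic kinase, at 32.6, 39.1 and 36.9 FPKM in E16.5 FL and 17.9, 17.7 and 22.7 in Perinatal BM (log2 change -0.87 ± 0.09, adjusted p = 3.53e-07). Pcna was at 393, 373 and 336 FPKM in E16.5 FL and 330.1, 325 and 381 in Perinatal BM in the same libraries and was not called. In 1w BM against Perinatal BM 19 of the 24 were called higher, with a median log2 change of 0.41, and Plk1 was at 35.4, 34.2 and 39.4 FPKM in 1w BM (log2 change 0.87 ± 0.09, adjusted p = 6.25e-07). In 8w BM against E16.5 FL, 18 of the 24 fell, with a median of -0.35, beside 6 replication genes called higher and 5 lower with a median of 0.01.

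**Figure D5:**
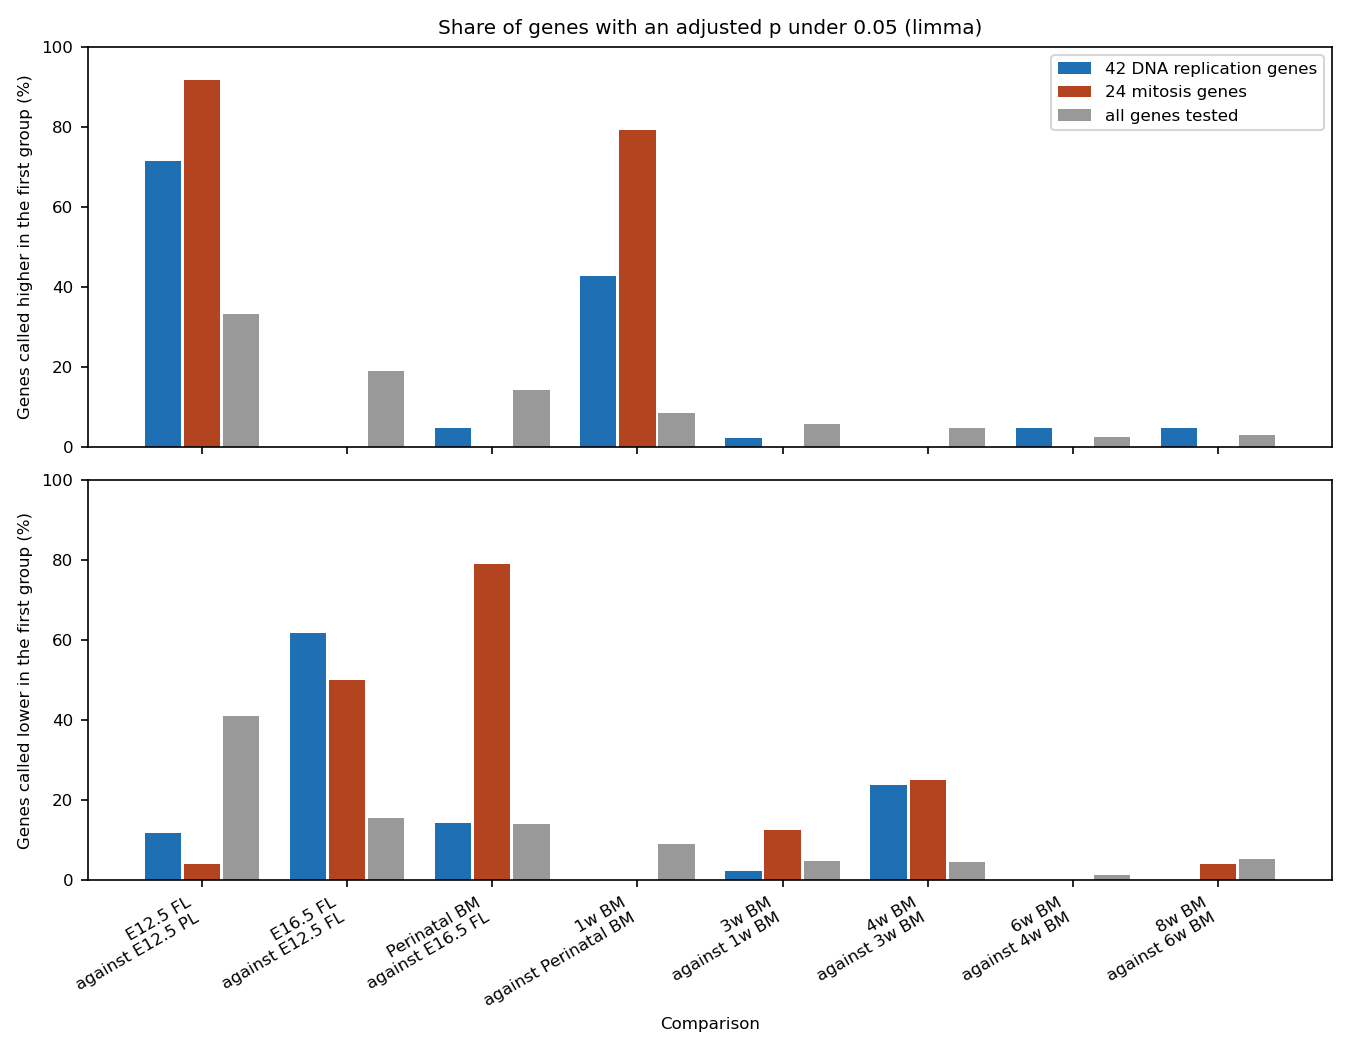
Share of genes called higher (upper panel) and lower (lower panel) in the first group of 8 comparisons, as a percentage of the 42 replication genes, of 24 mitosis genes and of all 13350 genes tested. Blue bars stand well above the grey bars for higher calls in E12.5 FL against E12.5 PL and 1w BM against Perinatal BM, and for lower calls in E16.5 FL against E12.5 FL and 4w BM against 3w BM. In Perinatal BM against E16.5 FL the red-brown bar of lower calls stands for 19 of 24 genes and the blue bar for 6 of 42.

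The calls were also counted by the E2F words shown above. Of all genes tested, 15.6% were called lower in E16.5 FL against E12.5 FL and 8.6% higher in 1w BM against Perinatal BM. The share was 33.2% higher in E12.5 FL against E12.5 PL and 4.56% lower in 4w BM against 3w BM. In E16.5 FL against E12.5 FL, 14 of the 21 genes with a word fell and 7 of the 12 without, with median log2 changes of -0.25 and -0.23. In 1w BM against Perinatal BM, 10 of 21 and 7 of 12 were called higher, with medians of 0.18 and 0.23. In E12.5 FL against E12.5 PL, 15 of 21 with a word and 9 of 12 without were called higher, and in 4w BM against 3w BM 6 of 21 and 2 of 12 were called lower. A difference between these classes was not tested, and the absence of a word says only that its letters are not in the window.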

How the data were processed

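RNA of 27 HSPC libraries had been prepared with the Illumina TruSeq RNA kit, per the labels' protocols. Trim Galore, FastQC, STAR 2.7, HTSeq 0.6.1p1 and GRCm38 are named in the submitters' processing notes. The FPKM values were deposited by the authors as 1 table, and neither the tool that made them nor the annotation or strand setting is stated. FPKM values are not counts, so no count test was run, and the depth is unknown beyond the relative depth given above, which limits the precision of low values.

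A gene was tested where 3 or more libraries reached 1 FPKM (13350 genes). limma 3.58.1 (R 4.3.3; lmFit, then eBayes with trend = TRUE) was run on log2(FPKM + 1) with 1 mean per group, over all 27 libraries (18 residual degrees of freedom), with Benjamini-Hochberg adjustment per comparison at 0.05. Log2 changes are on this scale, which understates the change of low genes. The 18 residual degrees of freedom rest on a spread that the groups share. The script was tested on data simulated with independent normal noise and a spread shared by the groups. Such data cannot check that shared spread or outlying libraries. Groups were taken from the labels.

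The 42 genes and the other lists were chosen with earlier results of these data known. Genes given with a fold and a p were the called genes with the 4 largest changes in each direction, and every gene called against the majority. From each pathway list up to 4 genes with the smallest adjusted p could be named, and from each marker list up to 3 with the highest mean FPKM. Marker lists of other cell types were summed in FPKM. Some of the sums that moved between the groups compared are given beside the result, but not all of them. Alternatives were a pseudocount of 0.1, no filter or a minimum of 5 FPKM, TPM scaling, median-of-ratios scaling, fits of the 6 libraries compared, fits without E12.5 PL, a replicate term and leaving out each library. Promoters were taken from RefSeq, and gene positions and overlaps from GENCODE on GRCm38, with Python 3.11.15. Protein sequences were not used here.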

Additional observations from a re-analysis of the deposited data

How the results depend on the processing

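In limma, the number of the 42 genes called stayed within 1.5 times of the reported count, for all 11 comparisons, with median-of-ratios scaling and a minimum of 5 FPKM. The median-of-ratios factors were 0.9908 to 1.019 in the 27 libraries, so that scaling left the values nearly unchanged and is a weak check. Under TPM scaling the count was 5 in Perinatal BM against E16.5 FL, 3 in 4w BM against 3w BM and 0 in 6w BM against 4w BM (4 at an unadjusted p under 0.05 in the unscaled fit). The cause was not tested. In E12.5 FL against E12.5 PL this scaling moved the median of all genes from -0.06 to 0.20, and with it Cdc6, Rfc3 and Tyms changed sign (0.27, 0.24 and 0.23). In fits of only the 6 libraries compared, which have fewer samples to set the spread, the count was 2 in Perinatal BM against E16.5 FL, 1 in 3w BM against 1w BM, 2 in 4w BM against 3w BM, 0 in 6w BM against 4w BM, 0 in 8w BM against 6w BM, 7 in 8w BM against E16.5 FL and 7 in 8w BM against Perinatal BM. With no filter it was 1 in 3w BM against 1w BM and 1 in 8w BM against 6w BM, where a pseudocount of 0.1 and the fit without E12.5 PL also gave 1. Leaving out each library in turn gave 33 to 35 calls in E12.5 FL against E12.5 PL, 16 to 24 in E16.5 FL against E12.5 FL, 2 to 6 in Perinatal BM against E16.5 FL, 13 to 20 in 1w BM against Perinatal BM, 0 to 2 in 3w BM against 1w BM, 2 to 15 in 4w BM against 3w BM, 1 to 2 in 6w BM against 4w BM, 0 to 2 in 8w BM against 6w BM, 3 to 8 in 1w BM against E16.5 FL, 6 to 11 in 8w BM against E16.5 FL and 9 to 13 in 8w BM against Perinatal BM. The labels give the groups the same replicate numbers, but same-numbered libraries did not deviate together (correlations from -0.205 to 0.227), and 8 of 27 libraries were closest to their own number. With a replicate block the count was 6 in 4w BM against 3w BM and 1 in 8w BM against 6w BM, and within 1.5 times of the reported count in the other 9 comparisons.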

Other observations

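The 42 genes lie on 14 chromosomes. Of these, 6 (14.3%) start within 1000 bases of a protein-coding gene on the opposite strand that runs the other way. Genes that overlap at their starts were not counted. By the same rule, 6.79% of 21951 protein-coding genes have this head-to-head arrangement. The pairs are Mcm4 with Prkdc, Orc1 with Prpf38a, Gins1 with Abhd12, Rpa1 with Smyd4, Rpa3 with Umad1 and Pole with Pxmp2, and the distance between the starts is 87 bases for Orc1 and 466 for Mcm4. Exons of 15 of the 42 genes overlap those of another gene, over at least 10% of their exon length for 8 (Fen1, Gins2, Orc2, Ccne2, Rfc2, Rfc4, Orc1 and Rfc5), and how reads in these stretches were assigned was not stated.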
